A study of Mus musculus with 2 samples.

Results

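The UDP-glucuronosyltransferases (UGTs) and the cytosolic sulfotransferases (SULTs) were taken from the single-cell data as every gene whose symbol carries the name of one of these families, 42 of the 32285 genes listed in the files, of which 21 were Ugt1a, Ugt2a, Ugt2b or Ugt3a genes and 21 were Sult genes. The rule for the members uses symbols only, but the families were picked with earlier results of these data known. The data came from 2 groups of littermate mice, 1 library each. WT mice and HKO mice, in which Albumin-Cre deletes floxed miR-33 alleles, ate CD-HFD, a high-fat diet without choline, for 6 months from 8 weeks of age. The study's methods give all mice as male. Each library was a pool of 3 livers, with hepatocytes and sorted non-parenchymal cells mixed before droplet capture with a 3′ kit. Whether the WT mice carried floxed alleles was not given in the sources used here. Albumin-Cre is active in hepatocytes and, according to the study, possibly also in cholangiocytes. Mature microRNAs are not counted in this assay, so the deletion could not be checked from the counts, and with 1 library per genotype a difference between genotypes and a difference between 2 libraries cannot be told apart. No p value is given for that reason. The 95% intervals are exact and cover counting error only.

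Conjugation makes lipid-soluble molecules fit for excretion. UGTs sit in the endoplasmic reticulum and move glucuronic acid from UDP-glucuronate to bilirubin, steroid hormones, bile acids and drugs, while the UGT3A enzymes use other UDP sugars. SULTs work in the cytosol and move a sulfonate group from PAPS to phenols, catecholamines, thyroid hormone, estrogen, hydroxysteroids and bile acids. Hepatocytes hold most of both activities, and many drug-metabolising enzymes lie nearer the central vein than the portal vein.

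Sequence sets the first limit on what the counts can say. The 9 Ugt1a genes are first exons of 1 locus on chromosome 1 (mm10) that splice to the same last exons, so their coding sequences start differently and end alike. The first 60 coding bases of 3 of them are shown because they lie in the part that differs between most of these genes, and a 3′ library reads the other end. Ugt1a6b and Ugt1a7c began with the same 60 bases as Ugt1a6a. The capitals mark the start codon.
Ugt1a1, start: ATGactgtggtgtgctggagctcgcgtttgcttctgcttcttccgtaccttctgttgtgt
Ugt1a6a, start: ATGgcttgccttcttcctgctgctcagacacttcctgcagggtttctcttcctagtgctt
Ugt1a9, start: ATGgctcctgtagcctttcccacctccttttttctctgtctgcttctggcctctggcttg
The identical coding end ran over 740 to 741 bases, against a coding length of 1608 bases for Ugt1a1. In the GENCODE annotation of mm10 the last 400 transcript bases lay wholly within exons of the other Ugt1a genes for 8 of the 9, all but Ugt1a7c, whose annotated transcript runs further. The same held for Ugt2a1 and Ugt2a2. Among the SULTs, 42.1% of the 90-base stretches in that window of Sult2a2, 45.7% in Sult2a5 and 12.9% in Sult2a4 recurred in another gene, so their counts are uncertain too, and none of the 13 genes measured below shared any. Reads from such an end cannot be given to 1 gene. The 8 Ugt1a genes, Ugt2a1 and Ugt2a2 are therefore reported as uncertain, and their counts may leave out an unknown part of their transcripts. In hepatocyte-like barcodes the 9 Ugt1a genes together gave 873 UMIs in WT and 565 in HKO, a summed level of 17.8 and 21.5 CPM, the UMI count scaled to the same total for each group of barcodes. Ugt1a1, the enzyme that conjugates bilirubin, held 330 and 244 of these UMIs. Ugt1a6a, a phenol-conjugating enzyme, held 246 and 118. Both genes were too low for the minimum mean of 10 CPM used below.

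The Ugt2b genes lie side by side on chromosome 5 and were separable by the annotated ends of their transcripts. Where the counted reads fell was not examined. None of the 90-base stretches in the last 400 transcript bases of Ugt2b5 occurred in another gene's transcript. This bears on the contrast in level between Ugt2b5 and 2 near-copies. Ugt2b5 gave 28556 UMIs in WT and 9616 in HKO, whereas Ugt2b38 gave 19 and 15 and Ugt2b37 gave 28 and 7. The coding sequences of Ugt2b38 and Ugt2b37 were 97.0% and 94.7% identical to that of Ugt2b5. Their last 400 transcript bases, at the end that a 3′ library reads, were 88.9% and 88.5% identical to those of Ugt2b5 over the aligned part. The promoter windows, 250 bases before to 50 after the RefSeq start on GRCm38.p6, were 90% and 89.5% identical over the aligned bases. They are shown because these near-copies differed so widely in level. All 3 run on the minus strand, and the capitals mark AGGTCA, the half-site of nuclear receptors, searched on both strands together with GTTAAT, a half-site of HNF1, and GCGTG, the core of the AHR site.
Ugt2b5, chr5:87140291-87140590: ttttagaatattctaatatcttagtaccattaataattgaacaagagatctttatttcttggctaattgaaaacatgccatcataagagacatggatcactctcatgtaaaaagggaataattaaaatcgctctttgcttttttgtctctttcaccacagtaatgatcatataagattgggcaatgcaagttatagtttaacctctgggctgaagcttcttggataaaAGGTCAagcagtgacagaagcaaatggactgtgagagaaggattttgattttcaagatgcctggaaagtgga
Ugt2b37, chr5:87254739-87255038: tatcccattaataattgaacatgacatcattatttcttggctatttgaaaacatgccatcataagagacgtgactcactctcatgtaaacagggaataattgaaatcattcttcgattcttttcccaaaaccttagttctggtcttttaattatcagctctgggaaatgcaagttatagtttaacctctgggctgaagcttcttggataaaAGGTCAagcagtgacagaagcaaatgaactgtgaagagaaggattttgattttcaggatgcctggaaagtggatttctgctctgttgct
Ugt2b38, chr5:87424154-87424453: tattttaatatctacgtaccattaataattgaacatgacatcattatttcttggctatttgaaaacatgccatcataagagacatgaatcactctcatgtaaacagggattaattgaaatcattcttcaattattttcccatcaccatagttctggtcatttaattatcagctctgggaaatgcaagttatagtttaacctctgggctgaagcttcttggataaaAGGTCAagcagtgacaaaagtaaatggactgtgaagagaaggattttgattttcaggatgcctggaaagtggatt
Each of the 3 windows held AGGTCA once, as did those of Ugt2b36 and Ugt2b35, and neither Ugt2b34 nor Ugt2b1 held any of the 3 motifs. Over both families AGGTCA was found in 7 of 19 UGT windows and in 3 of 20 SULT windows, against 16.3% of 32851 promoter windows of that length. GTTAAT was found in 6 UGT and 7 SULT windows, against 7.1% of all windows. GCGTG was found in 2 UGT and 4 SULT windows, against 32.4% of all. The 20 SULT windows belong to 17 genes, and neighbouring paralogs share sequence, so these counts are not independent. A match in letters is a description and shows no binding.

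Levels were summed over hepatocyte-like barcodes, those outside every cluster with markers of other cell types and of a depth no less than 2 times the commonest one in that library. The 5 hepatocyte markers (Alb, Apoa1, Ttr, Apob and Serpina1a) made up 5.94% of their UMIs in WT and 4.77% in HKO, against 2.55% and 1.40% in T and NK barcodes. WT gave 1912 such barcodes with a median of 20374 UMIs and HKO 3704 with a median of 4233. The libraries held 130451427 UMIs in 30078 barcodes (WT) and 52563185 in 20000 (HKO), and most barcodes in both were at the depth of free RNA, 20178 in WT and 10369 in HKO. The hepatocyte-like barcodes also held UMIs of genes listed as markers of other cells. Summed erythroid markers were at 627 CPM in WT and 2121 in HKO, B and plasma cell markers at 7.71 and 62.5, neutrophil markers at 1.26 and 13.8, stellate markers at 9.91 and 17.1, and cholangiocyte markers at 118 and 62.9. The other 6 marker lists were between 1.39 and 33.2 CPM in WT and between 1.64 and 36.1 CPM in HKO. The origin of these UMIs and their part in the results were not tested. Barcodes shared between the libraries were not analysed here.

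Of the 42 genes, 39 had at least 1 UMI in these barcodes and 13 reached a mean of 10 CPM, 8 UGTs and 5 SULTs. A UMI counts 1 captured molecule whatever its length, so CPM is compared between genes without a length correction. UGT transcripts outnumbered SULT transcripts, at 2044 CPM summed over the 21 genes against 549 in WT, and 1552 against 631 in HKO. Ugt2b5 and Ugt2b36 had the largest shares of the UGT total, 28.5% and 24.5% of it in WT and 23.6% and 24.9% in HKO. Ugt2b34 added 13.5% and 13%. Among SULTs, Sult2a8, a bile acid sulfotransferase of the mouse hepatocyte, gave 41.3% and 41.6% of the UMIs. Sult1a1, the main phenol sulfotransferase, gave 26.3% and 27.6%, and Sult1d1, which sulfonates catecholamines, 22.1% and 19.3%.

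**Figure D1:**
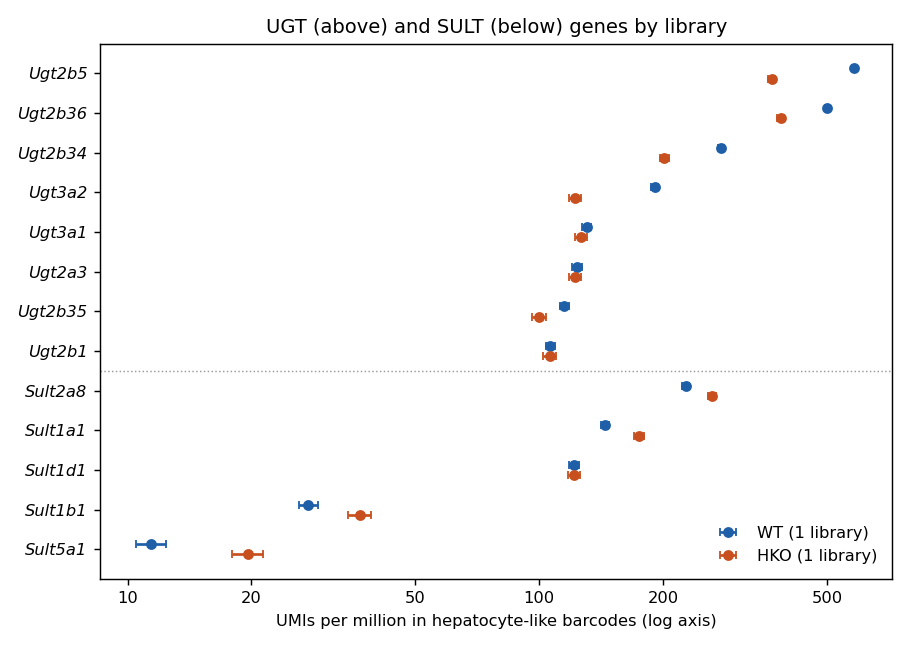
Level of the 13 measured genes in hepatocyte-like barcodes, in CPM on a log axis, with WT in blue and HKO in orange, 1 library each, and exact 95% counting intervals as bars. Ugt2b5 lay highest in WT at 582 and Ugt2b36 highest in HKO at 386, while Sult5a1 lay lowest in both.

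The first comparison asked whether loss of hepatic miR-33 changed these transcripts under the diet. Of the 13 genes, 5 were higher and 8 lower in HKO. Their median log2 ratio was -0.02, the same as the -0.02 over all 7085 measured genes. At a fold of 1.5, 1 gene lay above WT and 2 below. Over all measured genes 2.39% lay above and 4.22% below, so 1 and 2 of 13 genes are near the background and the genes are given singly.

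Ugt2b5, of the steroid-conjugating UGT2B subfamily, was lower in HKO. Its level was 582 CPM (575 to 589) for WT against 366 CPM (359 to 374) for HKO, and HKO over WT was 0.63 (0.61 to 0.64). Ugt3a2, of the family that uses other UDP sugars, was at 191 CPM (187 to 194) for WT against 122 CPM (118 to 126) for HKO, and HKO over WT was 0.64 (0.62 to 0.67). The intervals of the libraries did not overlap for either gene, and the HKO level was below WT in each of the 3 liver zones described below, at ratios of 0.62 to 0.66 for Ugt2b5 and 0.60 to 0.70 for Ugt3a2.

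Ugt2b34 and Ugt2b36 were lower by less, at 277 against 201 CPM (ratio 0.73, 0.70 to 0.75) and 499.9 against 386 CPM (ratio 0.77, 0.75 to 0.79). Ugt2b35 was at 115 CPM in WT and 100.0 in HKO. The other UGTs differed by a few percent. Ugt2b1 was at 106 CPM in both libraries, Ugt2a3 at 123 and 122, and Ugt3a1 at 130.5 and 126, and the interval of the ratio took in 1 for each of these 3. In order of level, the pair at the top changed places, with Ugt2b5 above Ugt2b36 in WT and below it in HKO. In HKO the intervals of Ugt3a1, Ugt2a3 and Ugt3a2 overlapped, so their order there was within counting error.

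Every SULT measured was level or higher in HKO. Sult5a1 had the widest ratio, 11.4 CPM (10.5 to 12.4) for WT against 19.6 CPM (17.9 to 21.3) for HKO, which gave 1.72 (1.52 to 1.94). Its counts were 560 and 514 UMIs. Sult1b1, a thyroid hormone sulfotransferase, was at 27.5 CPM and 36.6 CPM (ratio 1.33, 1.23 to 1.45). Sult1a1 was at 144 and 174 CPM (ratio 1.21, 1.16 to 1.25). Sult2a8 was at 226 and 262 CPM (ratio 1.16, 1.12 to 1.19), and Sult1d1 was at 121 and 122 CPM (ratio 1.00, 0.96 to 1.05). The UGT and SULT totals thus lay on opposite sides of 1, but every one of these genes was read in the same pair of libraries, and the split between the families was not tested.

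The barcodes at free RNA depth, which hold transcripts of broken cells from the same livers, gave another reading of the same libraries, chosen after the values above were seen. There the median log2 ratio of all 6992 measured genes was -0.21, and 4.39% of genes lay at least 1.5-fold above WT and 14.2% below. Of the 14 genes of both families measured there, 2 lay above, Sult5a1 and Ugt1a1, and 1 below, Sult1d1. Sult5a1 was at 10.3 CPM for WT against 15.8 CPM for HKO, with HKO over WT at 1.53 (1.28 to 1.83), on the same side as in hepatocyte-like barcodes. Ugt1a1, with the shared end described above, was at 9.48 and 15.8 CPM (ratio 1.66, 1.38 to 1.99). It was under 10 CPM in WT and reached the minimum mean through its HKO level. Its place among the genes above WT was thus partly set by that filter.

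The lower UGTs had other ratios there. Ugt3a2 had a ratio of 0.72 (0.69 to 0.76) in free RNA, a log2 value of -0.47, below the median of all genes. The Ugt2b5 ratio was 0.86 (0.84 to 0.89), a log2 value of -0.21, the same as that median, and Ugt2b36 at -0.06 lay above it. Ugt2b34 (0.78, log2 value -0.35) and Ugt2b35 (0.73, log2 value -0.46) lay below it. Of the UGTs level in hepatocyte-like barcodes, Ugt3a1 had a free RNA ratio of 0.79 (0.75 to 0.85). That of Ugt2b1 was 1.11 (1.04 to 1.18) and that of Ugt2a3 was 0.95 (0.90 to 1.01). Sult1a1, Sult1b1 and Sult2a8, higher in HKO hepatocyte-like barcodes, were below 1 in free RNA, with log2 ratios of -0.24, -0.31 and -0.11, the last of them above the median. Sult1d1, level in hepatocyte-like barcodes, was at 200.3 CPM in the free RNA of WT against 122 CPM in that of HKO (0.61, 0.58 to 0.65). For these 4 SULTs the ratio between the libraries therefore depended on which barcodes were read.

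**Figure D2:**
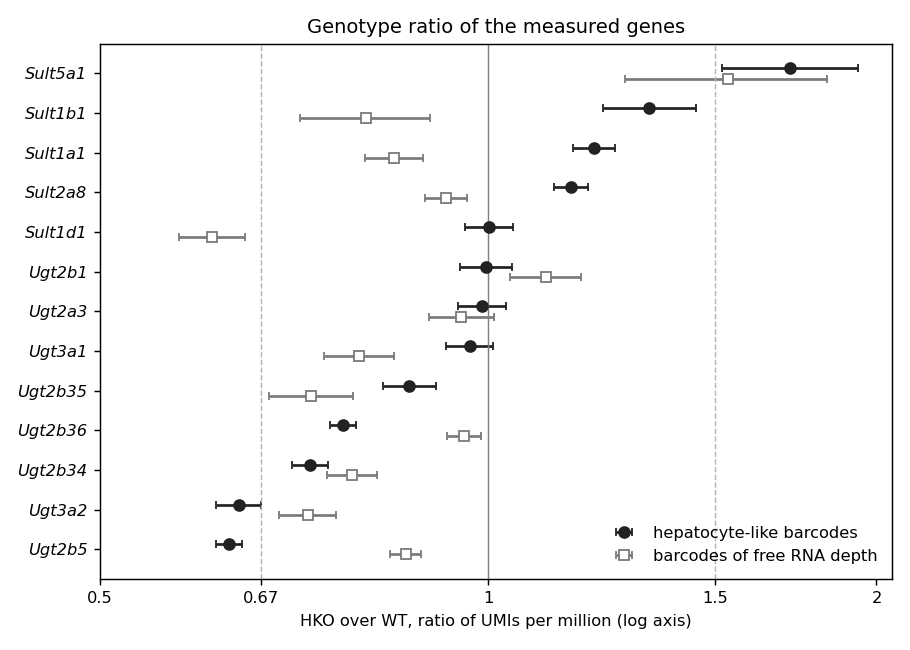
HKO over WT ratio of CPM for the 13 genes on a log axis, in hepatocyte-like barcodes (filled circles) and in barcodes of free RNA depth (open squares), with exact 95% counting intervals and dashed lines at 1.5-fold. Sult5a1 lies above 1 and Ugt3a2 below 1 in both readings, while Sult1a1, Sult1b1 and Sult2a8 change sides of 1; the median of all genes in free RNA was itself at a log2 ratio of -0.21, which is where Ugt2b5 lies.

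The 29 genes under the minimum were 13 UGTs and 16 SULTs. Of these, 3 had no UMI in either library (Sult1c1, Sult2a4 and Sult6b2), 12 had 1 to 20 UMIs over both libraries and 14 had 29 to 574. Of these, Sult1e1, Sult2a7, Sult2a1 and Sult3a1 are named here after their counts were seen. Sult1e1, the estrogen sulfotransferase, had 260 UMIs in WT against 28 in HKO, or 5.30 against 1.07 CPM, with HKO over WT at 0.20 (0.13 to 0.30). Its free RNA values were 394 and 12 UMIs (0.15, 0.08 to 0.27), so both readings of the HKO library were low. Sult2a7 had 226 UMIs in WT against 246 in HKO, with HKO over WT at 2.03 (1.69 to 2.45) here and at 1.60 (1.28 to 1.98) in free RNA.

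Sult2a1, a hydroxysteroid sulfotransferase that is typical of female liver, showed how a low sum can rest on 1 droplet: of its 61 UMIs in WT, 54 came from 1 barcode, and HKO had 1 UMI. Sult3a1, also typical of female liver, had 11 UMIs in WT and 4 in HKO. As a check on the sex given in the study's methods, 9 of 10 listed male-predominant liver genes reached the minimum (4 higher and 5 lower in HKO). Of 10 listed female-predominant genes, 2 did. Cyp2b9, a female-predominant cytochrome P450, was at 100.0 CPM for WT against 93.4 CPM for HKO, and Acot3, an acyl-CoA thioesterase and the other one measured, at 13.7 and 30.9 CPM (2.25, 2.03 to 2.49). Elovl3, a male-predominant fatty acid elongase, was at 112 CPM and 41.6 CPM. Its HKO over WT ratio of 0.37 was the furthest from 1 of the male-predominant genes measured. The rest lay between 0.74 for C6 and 1.38 for Mup20.

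The second comparison placed the genes along the liver lobule. Each hepatocyte-like barcode was scored from 13 pericentral and 15 periportal landmark genes, none of them a UGT or SULT, and the barcodes of each library were ranked and split into 3 zones of equal size. Of the 13 genes, 4 were at least 1.5-fold higher in the pericentral zone in WT and 4 in HKO, where 5.69% and 6.19% of all measured genes were. In the opposite direction it was 1 gene in each library, against 3.73% and 2.69% of all genes. Thinned to 1500 UMIs per barcode, the pericentral count was 3 of 13 in WT, where 12.1% of all genes were past the fold, and 2 of 13 in HKO, where 7.6% were. Of the 4 genes past the fold in WT, 3 are neighbouring Ugt2b paralogs. The median log2 ratio of pericentral over periportal zone was 0.20 in WT and 0.16 in HKO for the 13 genes, beside 0.07 and 0.10 for all genes. Median depth was 20797, 18264 and 21874 UMIs from the periportal to the pericentral zone in WT and 6791, 3036 and 4106 in HKO. In the same order the median mitochondrial share was 15.1%, 7.68% and 11% in WT and 13.2%, 5.77% and 9.37% in HKO, lowest in the middle zone of both. Marker sums differed by zone too: cholangiocyte markers were at 170.2, 110.0 and 73.1 CPM in WT and at 71.7, 86.4 and 33.6 in HKO, and erythroid markers at 802, 386 and 692 and at 1267, 3347 and 2272. B and plasma cell markers were at 10.5, 5.72 and 6.90 CPM in WT and at 107.9, 6.96 and 46.9 in HKO, and neutrophil markers at 0.49, 1.78 and 1.53 and at 5.80, 41.1 and 2.91. The part of depth, of this share and of these markers in the ratios was not tested. The zones were set in each library by itself, so zones of the same name need not match between the libraries. The median log2 zone ratio of the pericentral landmarks was 3.88 in WT and 5.21 in HKO, and that of the periportal ones -0.94 and -1.64. Each of the 28 was steeper in HKO. The same landmarks ranked the barcodes in the same counts. Their ratios therefore follow in part from the sorting and do not measure how far apart the zones lay.

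Sult2a8 had the steepest pericentral gradient among these genes. Its level was 86.5, 219 and 375 CPM from the periportal over the middle to the pericentral zone in WT, a ratio of 4.33 (4.09 to 4.59). In HKO it was 76.3, 251 and 509.6 CPM, a ratio of 6.68 (6.20 to 7.20). Split more finely, into 5 bins, it climbed at every step in both libraries, from 54.6 to 434 CPM in WT and from 57.3 to 550.1 CPM in HKO. The libraries were close at the periportal end, where HKO over WT was 0.88 in the periportal zone, and apart at the pericentral end, where it was 1.36. Pericentral landmarks, which set the zones, had the same order of ratios, such as 0.77 and 1.28 for Cyp2e1 and 0.79 and 1.47 for Rgn.

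Sult5a1 ran the other way. It was at 16.4, 12.7 and 5.13 CPM in WT, 3.19-fold (2.49 to 4.13) higher in the periportal than in the pericentral zone. In HKO it was at 29.5, 21.9 and 5.11 CPM, a fold of 5.76 (4.20 to 8.08). HKO over WT was 1.80 in the periportal, 1.72 in the middle and 1.00 in the pericentral zone. Periportal landmarks also had lower ratios in the pericentral than in the periportal zone, such as 0.61 against 0.94 for Etnppl and 0.66 against 1.10 for Ctsc. They too were part of the score that set the zones. Whether the gradient differed between the genotypes could not be tested with 1 library each.

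Of the UGTs, Ugt2b1 and Ugt2b35 were past 1.5-fold on the pericentral side in both libraries. With every barcode thinned to 1500 UMIs the Ugt2b35 ratio was 1.35 in WT and 1.43 in HKO, on the same side but under that fold. Ugt2b1 went from 71.9 CPM in the periportal to 149.8 in the pericentral zone of WT (ratio 2.08, 1.94 to 2.24) and from 77.7 to 142 CPM in HKO (ratio 1.83, 1.68 to 2.00). Ugt2b35 went from 86.9 to 150.3 CPM in WT (ratio 1.73, 1.62 to 1.85) and from 70.4 to 148 CPM in HKO (ratio 2.10, 1.92 to 2.30). In WT most of the difference lay in the outermost pericentral bin of the 5, where Ugt2b1 reached 173 CPM from 102 in the bin before it. Ugt2b34 stood at the limit, with ratios of 1.54 (1.48 to 1.60) in WT and 1.49 (1.40 to 1.58) in HKO, and 1.35 in WT when thinned. Just on the other side in WT was Sult1b1, with 1.39 (1.21 to 1.59) and, in HKO, 1.51 (1.30 to 1.76); thinned, these were 1.71 and 1.26.

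The most abundant UGTs differed little between the outer zones. Ugt2b36 had ratios of 1.08 in WT and 1.07 in HKO, and Ugt2b5 of 1.15 and 1.07. Over the 5 bins, however, Ugt2b5 was lowest at the periportal end and highest in the bin next to the pericentral end, at 481, 591, 626, 648 and 573 CPM in WT and 333, 372, 389, 436 and 344 CPM in HKO. Ugt3a1 had 1.10 and 1.12, and Ugt3a2 1.14 and 0.98. Sult1d1 leaned pericentral at 1.25 and 1.44. Sult1a1 leaned periportal, at 0.84 (0.79 to 0.89) and 0.80 (0.74 to 0.85), as did Ugt2a3, at 0.90 (0.84 to 0.95) and 0.79 (0.73 to 0.86). Summed over all its genes, the SULT family went from 405 to 696 CPM between the outer zones in WT and from 440.2 to 878 CPM in HKO, and the UGT family from 1837 to 2236 and from 1443 to 1709 CPM.

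**Figure D3:**
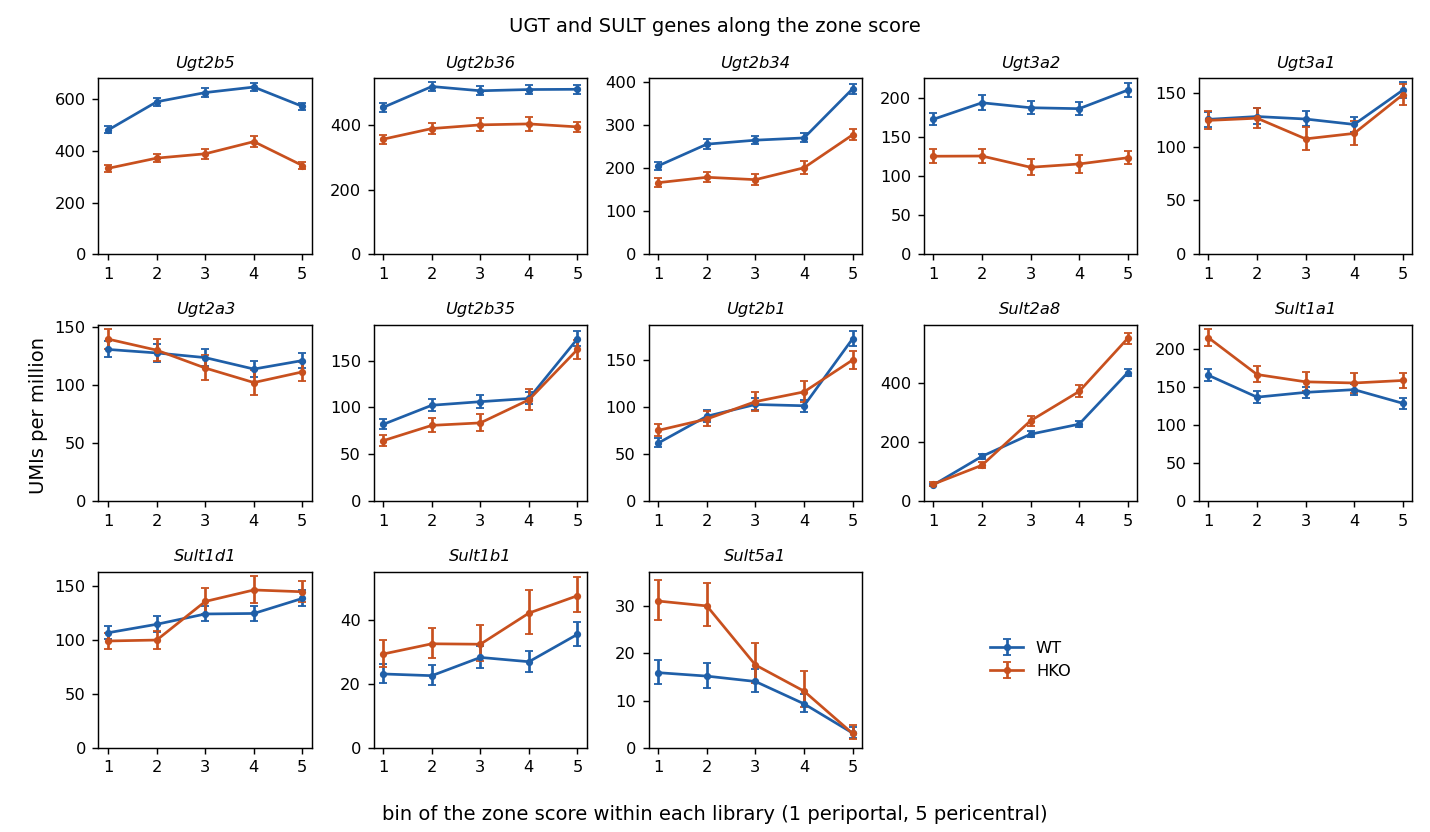
CPM of the 13 genes in each of 5 bins of the zone score, from periportal (1) to pericentral (5), with WT in blue and HKO in orange, exact 95% counting intervals as bars and each vertical axis starting at 0. Sult2a8 climbs in both libraries and Sult5a1 declines to about 3 CPM in both, while Ugt2b5 peaks in bin 4 of both, with HKO below WT in every bin.

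Conjugation also needs donors, transporters and regulators. These were listed together with the deconjugating enzymes Gusb, Arsa and Arsb. Of the 30 listed genes that the files hold, 28 were measured, these enzymes included. Of the 28, 11 were higher and 17 lower in HKO (median log2 ratio -0.15, against -0.02 for all measured genes). At 1.5-fold 0 lay above WT and 1 below, near the 2.39% and 4.22% of all genes: Bpnt1, the phosphatase that clears PAP, the product left by sulfonation, was at 56.5 CPM for WT against 31.0 CPM for HKO (ratio 0.55, 0.51 to 0.59). Ugdh, which makes UDP-glucuronate, was at 153 CPM in both libraries. Ugp2, which makes the UDP-glucose it starts from, was at 436 and 362 CPM (ratio 0.83). Papss2, a PAPS synthase, was at 66.3 and 80.8 CPM (ratio 1.22), and Papss1 was under the minimum at 3.96 and 2.59 CPM.

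By zone, 22 of the 28 were on the pericentral side in each library, as were 4077 of 7096 measured genes in WT and 4564 of 6993 in HKO, and 4 were past 1.5-fold in each, against the 5.69% and 6.19% given above. The 3 that were so in both were 2 receptors that switch on drug-metabolising genes and an exporter. Nr1i3 (CAR) had ratios of 2.94 in WT and 4.19 in HKO, and Ahr 3.05 and 5.58. Abcc3, which carries glucuronides into the blood, had 1.68 and 2.00, and its level was 124 CPM for WT against 84.6 CPM for HKO. Ugdh leaned the same way at 1.45 and 1.42. Esr1, the estrogen receptor, lay periportal at 0.25 and 0.27.

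**Figure D4:**
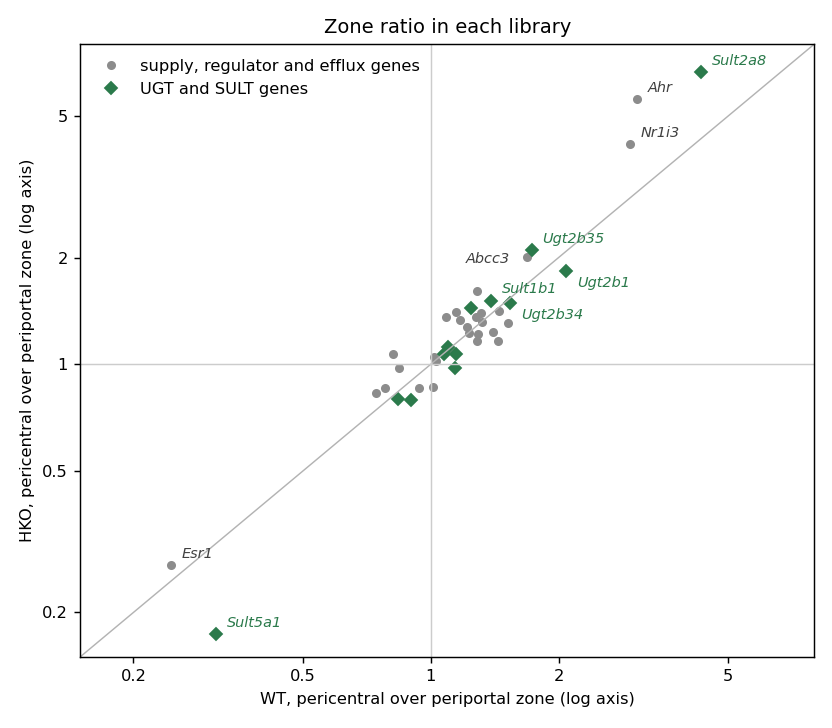
Pericentral over periportal ratio of CPM in WT (horizontal) and HKO (vertical), both on log axes, with the line of equality. Diamonds are the 13 UGT and SULT genes. Dots are the 28 measured supply, regulator and efflux genes, with the listed deconjugating enzymes among them. Sult2a8 lies with Ahr and Nr1i3 at the pericentral end and Sult5a1 with Esr1 at the periportal end.

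The last comparison asked in which other cells the genes were present. Because free RNA of hepatocytes enters every droplet, each count was set beside the count expected from the free RNA of the same library, scaled by 6 secreted hepatocyte proteins. Free RNA weighed heavily: thinned to 1500 UMIs per barcode, Sult2a8 was found in 26.8% of WT hepatocyte-like barcodes and in 21.8% (15.3 to 29.5) of WT T and NK barcodes, which should lack it, and in 29.0% and 12% in HKO. For Ugt2b5 the shares were 57.9% against 35.2% in WT and 42.9% against 21.4% in HKO. Unthinned, 98.7% of WT and 75.3% of HKO hepatocyte-like barcodes had a Ugt2b5 UMI. Median depths before thinning were 6382 UMIs in WT and 2511 in HKO T and NK barcodes, and 142 of 143 and 459 of 525 barcodes were deep enough to be thinned.

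In both libraries 4 pairs of gene and class exceeded the estimate, of 56 pairs of these genes with at least 10 UMIs in both, among 7 classes that had 10 or more barcodes in both. Over all genes it was 87.4% of 39463 such pairs, so exceeding the estimate was the rule among all genes and rare among these. Sult2b1, which sulfonates cholesterol, was the clearest. T and NK barcodes held 22 UMIs in WT, spread over 14 of 143 barcodes, and 28 in HKO, over 20 of 525, or 23.7 CPM (14.8 to 35.9) and 19.6 CPM (13 to 28.4). The free RNA estimate was 0.02 and 0.04 UMIs. Hepatocyte-like barcodes held 7 UMIs of Sult2b1 in WT and 0 in HKO, at most 0.14 CPM by the upper bound in HKO. By markers of the barcodes, all 22 UMIs in WT and 18 of 28 in HKO came with a UMI of Cd3d, Cd3e, Cd3g or Trac, the T cell receptor complex, at 30.1 and 15.8 CPM, against 0 and 34.8 CPM without one. Barcodes with a UMI of the NK receptors Ncr1 or Klrb1c, which overlap with the former, held 8 of the 22 and 18 of the 28, at 32.0 and 66.6 CPM against 20.6 and 8.65 CPM without one. The sides of the T cell split thus differed between the libraries. These divisions were chosen after the values were seen.

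Sult1a1 exceeded the estimate in endothelial-like barcodes, with 60 UMIs against 36.4 in WT and 32 against 18.3 in HKO. It did so too in barcodes with both endothelial and stellate markers, with 19 against 8.34 and 19 against 6.16. In barcodes with both stellate and macrophage markers it had 29 against 27.3 in WT and 75 against 16.1 in HKO. In macrophage-like barcodes it had 11 against 11.9 and 31 against 12.9. These last classes were thus above the estimate in the HKO library, and WT had 21 and 18 barcodes there against 90 and 94. Ugt2b5 in endothelial-like barcodes, 149 against 126 and 86 against 64.6, was near the limit and was not above it when the estimate was scaled by Alb alone. With doublet-scored barcodes kept, Sult1a1 in barcodes with both endothelial and stellate markers could not be compared, since WT had 8 such barcodes. Cholangiocytes were too few for this comparison, with 7 barcodes in WT and 24 in HKO.

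**Figure D5:**
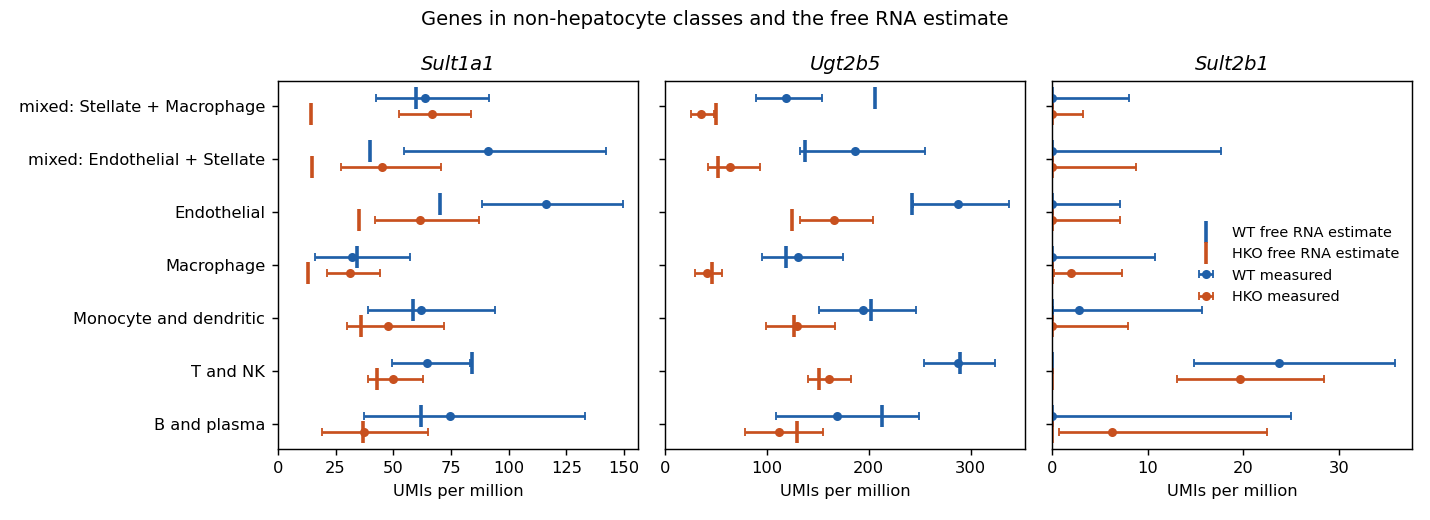
CPM of Sult1a1, Ugt2b5 and Sult2b1 in 7 non-hepatocyte classes, measured (points with exact 95% counting intervals) and estimated from free RNA (vertical ticks), with WT in blue and HKO in orange. Sult2b1 stands clear of an estimate near 0 in T and NK barcodes of both libraries, and Sult1a1 stands right of its tick in endothelial-like barcodes of both.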

How the data were processed

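UMI counts per gene and barcode were deposited as 1 matrix for WT and 1 for HKO, made by the authors with Cell Ranger 7.1.0 (per the file headers) on mm10 (submitters' processing notes, which also name R 3.0 and Seurat 3). How reads shared by several genes were counted, and the annotation release, are not given in the sources used here.

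Barcodes with under 500 UMIs, under 300 genes or over 50% mitochondrial UMIs were left out, as were those with the highest Scrublet scores at a rate of 0.8% per 1000 barcodes (7019 in WT, 2664 in HKO), since the automatic threshold marked 0. The barcodes were clustered with scanpy 1.11.5 on 2000 variable genes and 30 principal components, both libraries together, and clusters were named from at least 3 markers. Hepatocyte-like barcodes had at least 5141 UMIs in WT and 1626 in HKO. The zone score capped each landmark at 5 times its mean; 559 WT and 994 HKO barcodes lay within 0.05 of a limit between zones. Counts were summed, scaled to CPM, and given exact Poisson intervals; ratios were given exact conditional (Clopper-Pearson) intervals at 95%. The code was checked on simulated counts. Genes named by rule were all with a mean of at least 10 CPM and all above free RNA in a class of both libraries. Of the cofactor, deconjugation, regulator and efflux list, those past 1.5-fold between libraries, or between zones in both, were named. Ugdh, Ugp2, Papss1 and Papss2 were added. Members under the minimum, such as Sult1e1, Sult2a7, Sult2a1, Sult3a1, Ugt1a1, Ugt1a6a, Ugt2b37 and Ugt2b38, were named outside this rule. The families, and with them the members, and the lists were chosen with earlier results of these data known. Gene positions came from GENCODE and promoter sequences from RefSeq (GRCm38.p6), which matched 36 of the 42 genes. Alternatives covered doublets, depth, weighting, thinning, free RNA, the CPM minimum, the fold, landmarks and 5 zone bins. One sequence is not reported here.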

Additional observations from a re-analysis of the deposited data

How the results depend on the processing

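No ratio of the 13 genes whose interval left out 1 changed direction under these alternatives. The reading of barcodes at free RNA depth is not among them, and there Sult1a1, Sult1b1 and Sult2a8 changed sides of 1. Between the libraries 55 of 78 ratios under 6 alternatives stayed within their counting interval and 23 moved out of it, and by zone it was 78 of 104 in WT and 82 of 104 in HKO under 8. Ugt2b5 in HKO over WT ranged from 0.59 to 0.66, Ugt3a2 from 0.58 to 0.64, Sult5a1 from 1.58 to 1.74 and Ugt3a1 from 0.78 to 1.01. The fold of 1.5 was crossed by 15 ratios of 4 genes, Ugt2b34, Ugt2b35, Sult1b1 and Sult1d1, 7 of them on thinning: HKO over WT became 0.65 for Ugt2b34 and 1.55 for Sult1b1, and the zone ratio became 1.35 for Ugt2b34 in WT, 1.35 and 1.43 for Ugt2b35, and 1.71 and 1.26 for Sult1b1 in WT and HKO. The zone ratio of Sult2a8 ranged from 3.08 to 7.96 in WT and from 4.10 to 10.3 in HKO, and that of Sult5a1 from 0.20 to 0.56 and from 0.10 to 0.33. Thinned to 1500 UMIs per barcode, 2 of 13 genes lay above WT in HKO (1 as reported, 6.01% of all genes), 3 lay below it (2 as reported, 8.13%), 3 were pericentral in WT (4 as reported, 12.1%) and 2 in HKO (4 as reported, 7.6%). With a mean of at least 1 CPM, 3 of 22 genes lay above WT (5.57% of all genes) and 3 below it (5.6%), 7 of 23 were pericentral (9.08%) and 3 periportal (6.57%) in WT, and 9 of 22 were pericentral (11.4%) and 1 periportal (5.6%) in HKO. At a fold of 2, 0 of 13 genes lay above and 0 below WT (0.423% and 0.932% of all), and 2 were pericentral in each library (1.63% and 2.15%). With the profile of hepatocyte-like barcodes as the free RNA estimate, 9 of 56 pairs of gene and class exceeded it (4 as reported), against 88.6% over all genes. The cause of these moves was not tested beyond the threshold or gene set that each changes. No paired analysis was possible because each genotype has 1 library. Depth limits the low genes: at 28 to 260 UMIs a gene's sum can rest on few barcodes, as for Sult2a1.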
